A study of Mus musculus with 9 samples.

Results

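Cxcl12, which encodes a chemokine, and Cxcr4, which encodes its receptor, were followed through the mouse-derived cells of GBM patient-derived orthotopic xenografts (PDOXs). They were chosen by their symbols, and both symbols are listed in all 9 files. They are 2 of the 12580 symbols that every file lists and of the 33274 that at least 1 file lists. The samples are Drop-seq libraries, in which single cells are captured in droplets with barcoded beads and each transcript is counted near its 3′ end by a unique molecular identifier (UMI). All hosts were nude mice, which lack a thymus and therefore most T cells. Nu-NB is 1 brain of a nude mouse without tumor. The untreated PDOXs are P8, T101, T192 and T233, which grow invasively, and P3, T16 and P13, in which the study sees stronger angiogenic features, although it also calls the growth of P3 intermediate. P3TMZ is 1 further P3 tumor, from a mouse given temozolomide (TMZ). Tumor cells in a PDOX are human, and sorting and mapping were used to remove them. T192 and T233 come from 1 patient, every library is 1 deposited sample, and FACS was used to obtain the mouse cells of Nu-NB and P8, against a MACS mouse cell depletion kit in the other 7 samples.

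CXCL12 binds CXCR4, a receptor coupled to inhibitory G proteins, and draws cells that carry the receptor towards its source. A second receptor, ACKR3, takes CXCL12 up without signalling through G proteins. In the brain the ligand is made by vessels and meninges, while the receptor is known from leukocytes, neural precursors and the tip cells that lead a vascular sprout.

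On GRCm38 (GENCODE M21) Cxcl12 lies on the plus strand at chr6:117168535-117181367, with 3 protein-coding transcripts of 3 to 4 exons, and Cxcr4 on the minus strand at chr1:128588199-128592293, with 2 coding transcripts of 2 exons each. The deposited counts are per gene and do not tell these transcripts apart. The 250 bases before each start (RefSeq, GRCm38.p6, 5′ to 3′ on the strand of the gene) are shown because the ligand and its receptor were compared between tumors that differ in their vessels. Capitals mark the core letters of the hypoxia response element, searched as ACGTG and GCGTG on both strands. These are chr6:117168285-117168534 (plus strand) and chr1:128592300-128592549 (minus strand).
Cxcl12: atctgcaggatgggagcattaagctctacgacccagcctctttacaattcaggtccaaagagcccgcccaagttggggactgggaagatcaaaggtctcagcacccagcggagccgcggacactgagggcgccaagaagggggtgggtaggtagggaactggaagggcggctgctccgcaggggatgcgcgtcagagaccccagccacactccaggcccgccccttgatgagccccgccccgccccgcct
Cxcr4: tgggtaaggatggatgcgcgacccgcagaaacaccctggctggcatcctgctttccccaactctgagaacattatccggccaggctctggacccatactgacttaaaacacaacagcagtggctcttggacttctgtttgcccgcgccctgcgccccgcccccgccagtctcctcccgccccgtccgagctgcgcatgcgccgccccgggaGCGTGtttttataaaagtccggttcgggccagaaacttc
The window of Cxcr4 holds 1 match, which begins 39 bases before the start, and that of Cxcl12 holds 0 matches. Of 27025 promoter windows of this length, 38.6% hold at least 1 match, so the letters are common. Both windows are rich in G and C, at 64.4% for Cxcl12 and 61.2% for Cxcr4 beside a median of 52% over all windows.

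After filtering, each sample held 722 to 2771 cells, whose median depth lay between 515 and 1275 UMIs. Classes were named from clusters by fixed marker genes and carry the ending "-like". Both genes were kept out of the genes used for clustering. The class labels were checked against their markers: the 10 endothelial markers were each found in 39.9 to 83.6% of the endothelial-like cells and the 12 myeloid markers in 52.4 to 95.8% of the myeloid-like cells, while of 7 fibroblast markers 6 were found in at least 10% of the fibroblast-like cells. Among the first-level clusters that took no class name as a whole, 2 hold 0 cells of Nu-NB and were looked at further. One (698 cells, 93.3% of them from T101) is led by Rab3ip, Cnot2, Cand1, Frs2, Postn, Egfr and Mdm2, and the other (998 cells of 7 samples) by Hist1h4c and the predicted genes Gm17511, Gm11983 and Gm2178, and it contains all 252 cycling-like cells. Whether these cells are host cells was not tested, and sums over all cells are given with and without them. Any 2 files share at most 11 of their cell barcodes. Levels are given in CPM, the UMIs of the gene divided by all UMIs of the cells summed and scaled to 1e6, and intervals are exact 95% Poisson intervals that cover counting error only.

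Cxcl12 was found mainly in endothelial cells. Of 4583 Cxcl12 UMIs in the kept cells of the 7 untreated PDOXs, 3933 (85.8%) lay in endothelial-like cells, and per PDOX this share ran from 68.8% in P8 to 97.6% in T101. In Nu-NB it was 91.5% of 118 UMIs, although endothelial-like cells were 34 of 1775 cells there. In P8 a further 24.0% of the Cxcl12 UMIs lay in fibroblast-like cells, and in T233 16.1% lay in myeloid-like cells.

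**Figure D1:**
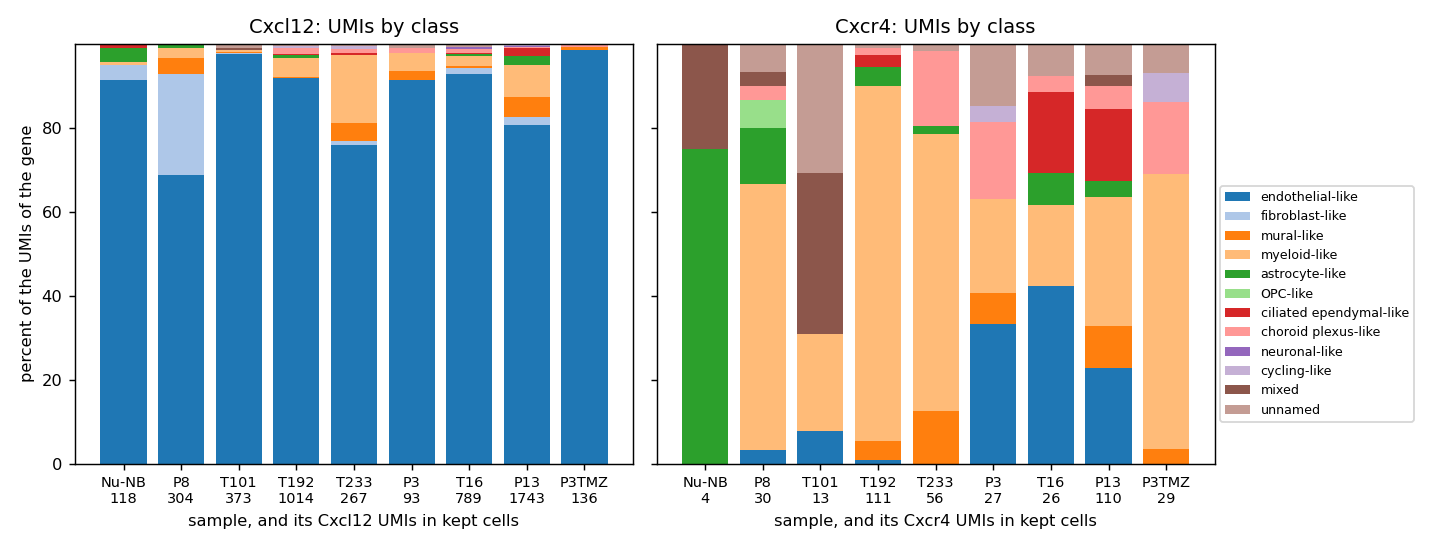
Percent of the UMIs of each gene found in each class of cells (y axis), for each sample (x axis, with the number of UMIs of the gene in its kept cells). The endothelial-like part fills most of every Cxcl12 bar, from 68.8 to 97.6% in the PDOXs, while Cxcr4 UMIs are few and are spread over several classes.

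In endothelial-like cells, the Cxcl12 level was 6611 CPM in Nu-NB (108 UMIs in 34 cells, interval 5423 to 7982). Among the invasive PDOXs it was 1828 CPM in P8, 2489 in T101, 4318 in T192 and 2270 in T233. Among the angiogenic PDOXs it was 416 CPM in P3, 1114 in T16 and 1015 in P13. Every PDOX lay below Nu-NB, and every angiogenic PDOX lay below every invasive one.

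Fibroblast-like cells, which include the matrix-producing cells of meninges and vessel walls, had the second highest Cxcl12 level. It was 456 CPM in Nu-NB (4 UMIs in 16 cells, interval 124 to 1168), 1547 in P8, 530 in T16 and 624.7 in P13. The other 4 untreated PDOXs had fewer than 10 such cells. This class holds much RNA of other types: its own 7 markers summed to 12769 CPM in Nu-NB, 14470 in P8 and 9108 to 9374 in T16 and P13, beside 12541, 4364 and 4343 to 9733 CPM of the 8 astrocyte markers and 798, 805 and 1914 to 11493 CPM of the 12 myeloid markers. The part of these cells in its Cxcl12 values was not tested. Within the 3 PDOXs that had both classes, the endothelial-like level was higher in 3 of 3, by a mean of 0.63 ± 0.39 (SD, n = 3) on the scale of log2(CPM + 50), a difference that an exact sign-flip test of 3 PDOXs cannot call (two-sided p = 0.25, the smallest it allows).

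All other classes stood far lower. In mural-like cells (pericytes and smooth muscle of the vessel wall) the level was 72.7 ± 46.1 CPM (SD, n = 7), from 24.2 to 153, and in myeloid-like cells 32.3 ± 24.4 CPM (SD, n = 7), from 4.90 to 79.8. The means of the ciliated ependymal-like, OPC-like (oligodendrocyte precursor), choroid plexus-like and astrocyte-like cells lay between 18.2 and 23.2 CPM, and that of the cycling-like cells, with 11 UMIs in all, at 74.8 CPM. In each of the 8 classes compared, the endothelial-like level was the higher one in every PDOX that had both. The mean difference was 3.80 ± 1.10 (SD, n = 7) on the log2(CPM + 50) scale over mural-like, 4.34 ± 1.19 (SD, n = 7) over myeloid-like and 4.91 ± 0.94 (SD, n = 6) over astrocyte-like cells. For the first pair the exact two-sided p was 0.0156, the smallest that 7 PDOXs allow. After Benjamini-Hochberg adjustment over the 16 class pairs of both genes, 0 of 8 pairs passed 0.05, and the adjusted exact p of these 3 was 0.0714. Among neighbors in the order of levels below the fibroblast-like cells, 0 pairs passed (adjusted exact p of 0.75 to 1), but over the 16 neighbor pairs of both genes the smallest adjusted p possible is 0.0833, so none could pass 0.05. The unadjusted exact p of mural-like over myeloid-like cells was 0.0469.

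Barcodes that failed the cell filters had a Cxcl12 level of 78.3 CPM in P8 to 637 in T101, and 213 in Nu-NB. In T101 this exceeds its level in every class but the endothelial-like. Whether these barcodes hold free RNA or shallow cells was not tested. The part of free RNA in the low levels outside endothelial-like and fibroblast-like cells was not tested. At equal depth (500 UMIs drawn from each cell that had as many), 518 of 1419 endothelial-like cells of the PDOXs held a Cxcl12 UMI (36.5%, exact binomial interval 34.0 to 39.1%), against 1 of 644 OPC-like cells (0.155%, interval 0.00393 to 0.862%), which should lack the gene. The median depth was 740 UMIs in the first and 792 in the second, and without thinning the shares were 45.8 and 0.334%. In fibroblast-like cells the share at equal depth was 34.4% (31 of 90 cells), in mural-like cells 3.46% and in myeloid-like cells 1.64%.

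**Figure D2:**
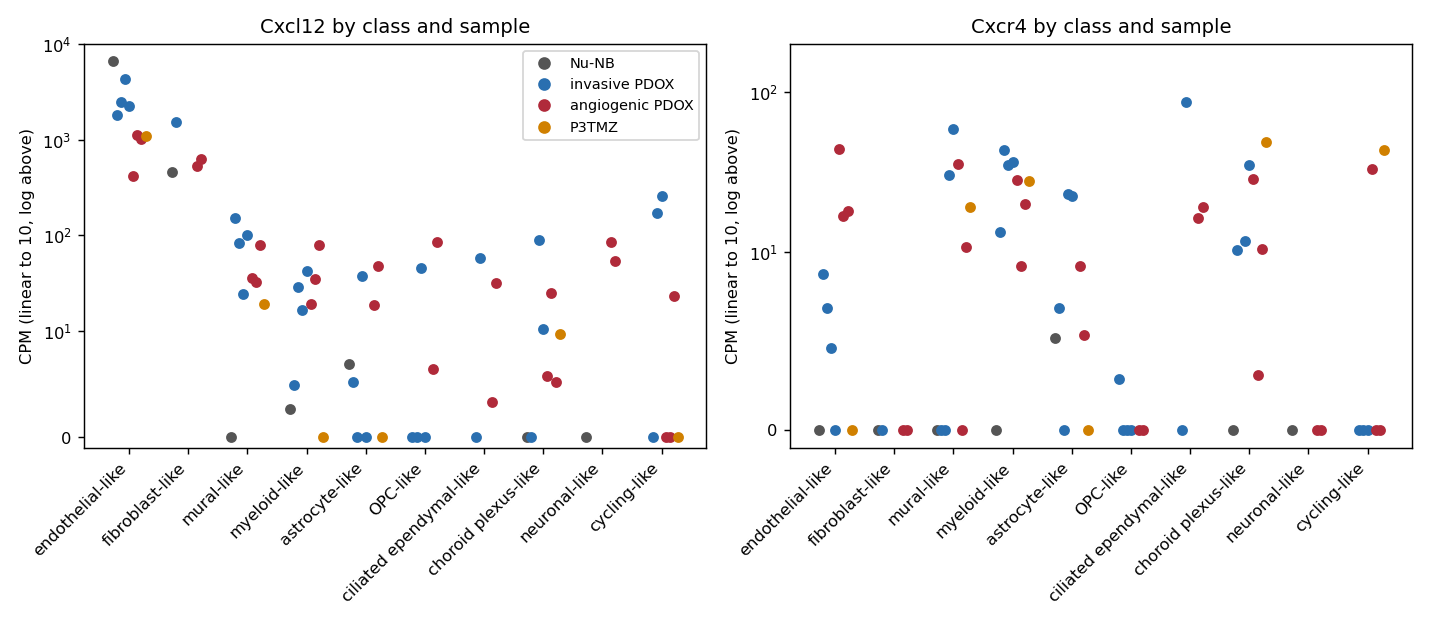
Level of Cxcl12 (left) and Cxcr4 (right) in CPM (y axis, linear up to 10 and logarithmic above) in each class (x axis), where each point is 1 sample with at least 10 cells of the class and colors give the group. Cxcl12 stands highest in endothelial-like cells, between 416 and 6611 CPM, and next in fibroblast-like cells, while Cxcr4 stays under 100 CPM in every class.

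The genes whose level followed Cxcl12 most closely over 61 sums of 1 class in 1 sample (Nu-NB and the 7 PDOXs, 3971 genes of at least 50 CPM on average) were Abcb1a (Pearson r = 0.91), 9430020K01Rik (0.89), Foxq1 (0.89), Itm2a (0.87) and Ramp2 (0.85). Abcb1a encodes an efflux transporter of the blood-brain barrier and Ramp2 a partner of the adrenomedullin receptor. These points share samples and classes, Abcb1a and Itm2a are themselves endothelial markers used for naming, and the values are a description.

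The comparison of PDOXs with the brain without tumor asks what changes in host cells next to GBM. In endothelial-like cells Nu-NB had 3.44 times the mean Cxcl12 CPM of the PDOXs, and between 1.53 times (T192) and 15.9 times (P3) that of single PDOXs. All Nu-NB cells of this class lie in the larger of its 2 clusters, and over the same cluster of the PDOXs the ratio was 2.13 to their mean and 1.16 (T192) to 3.89 (P3) to single PDOXs. The 10 endothelial markers summed to 29077 CPM in Nu-NB, 13988 to 15940 in angiogenic and 23069 to 26835 in invasive PDOXs. Astrocyte markers (1041 CPM, against 240 to 963 in PDOXs) and neuronal markers (735, against 17.5 to 436) also stood higher in Nu-NB. Choroid plexus markers stood lower there (367, against 397 to 3643). The part of these lists in the Cxcl12 values was not tested. In the edgeR fit, whose TMM scaling places the median gene 0.69 (log2) higher in PDOXs, the log2FC was -0.94 ± 0.79 (SE, 7 PDOXs and 1 brain) with an FDR of 0.57, so Cxcl12 did not pass. In this fit 0% of 6254 genes passed FDR ≤ 0.01 with |log2FC| ≥ 1, while 849 had an unadjusted p under 0.05 and DESeq2 called 0. On counts simulated at these sizes with 8-fold changes, the fit recovered 9 of 100 changed genes, so that it detects few changes of this size against 1 brain of 34 endothelial-like cells.

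In myeloid-like cells, Cxcl12 stood at 2.69 CPM in Nu-NB (1 UMI in 653 cells, interval 0.0681 to 15.0) and at 4.90 to 79.8 CPM in the PDOXs, with an edgeR log2FC of 3.77 ± 1.72 (SE, n = 7 against 1) and an FDR of 0.29. In mural-like cells it was at 0 of 8153 UMIs in Nu-NB, a depth at which up to 368 CPM would give no more than 3 UMIs, so that a difference was not detectable. In these myeloid-like cells the summed level of the 10 endothelial markers was 48.4 CPM in Nu-NB and 334 to 934 CPM in the PDOXs. Its part in the Cxcl12 values was not tested.

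Angiogenic and invasive PDOXs were compared because their vessels differ. In endothelial-like cells, the mean Cxcl12 level was 848 ± 378 CPM (SD, n = 3) in angiogenic and 2726 ± 1096 CPM (SD, n = 4) in invasive PDOXs, with no overlap. edgeR's quasi-likelihood test gave a log2FC of -1.72 ± 0.39 (SE) with a Benjamini-Hochberg FDR of 0.0482 over 4103 genes, of which 1.34% were called, 32 lower (0.78%) and 23 higher (0.561%) in angiogenic PDOXs. The median log2FC of all genes was -0.01. On 4066 genes simulated for this comparison the test made 10 false calls beside 87 of 100 genes changed 4-fold and 89 of 100 changed 8-fold. The exact permutation test on log2(CPM + 50) gave a difference of -1.66 with a two-sided p of 0.0571, the smallest that 3 against 4 allows, and an adjusted p of 0.46 over 16 tests of both genes. The FDR lies close to its threshold: it was above 0.05 when any PDOX but P8 was left out (up to 0.17, without P3), and it was 0.0715 without the doublet step. T192 and T233 come from 1 patient, and with their counts summed as 1 sample, a setting added later, the log2FC was -1.66 and the call was lost at the same rounded FDR of 0.0715, while the mean of the pair in the exact test gave -1.57 (p = 0.1, the smallest possible). Among the 6 MACS-sorted PDOXs alone the groups did not overlap either (difference -1.83, exact p = 0.1, the smallest possible).

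The endothelial-like class is made of 2 clusters that different tumors fill to a different degree. The larger cluster (1542 cells) is led by genes of the blood-brain barrier and arteries such as Gkn3, Ly6c1, Slco1a4 and Abcb1a. The smaller one (675 cells) is led by genes such as Apln, Cd93, Kdr and Slc38a5, of which Kdr encodes the main VEGF receptor and Apln a peptide secreted by tip cells. Cxcl12 itself, though not used for clustering, had the highest fold over all kept cells among the leading genes of the larger cluster. The smaller cluster took up 65.1% of the endothelial-like cells of P3, 42.9% of T16 and 34.8% of P13, all angiogenic. In invasive PDOXs it took up 16.2% in P8, 12.5% in T101, 8.53% in T192 and 1.71% in T233, and in Nu-NB all 34 cells fell in the larger cluster.

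Within the larger cluster the Cxcl12 level was 2230 CPM in P8, 3011 in T101, 5698 in T192 and 2300 in T233, and 1700 in P3, 3505 in T16 and 3305 in P13. The angiogenic and invasive values overlapped, with a difference of -0.18 on the log2(CPM + 50) scale (exact p = 0.74). Within the smaller cluster, the level was 627 CPM in P8, 466.3 in T101 and 342 in T192, and 6.45 in P3 (1 UMI), 72.0 in T16 and 152 in P13. There the groups did not overlap, with a difference of -2.21 (exact p = 0.1, the smallest that 3 against 3 allows; T233 had 2 cells and was left out). In the 6 PDOXs with at least 10 cells of both clusters, the larger cluster had the higher level in 6 of 6. The summed level of the 10 endothelial markers moved with these values: over the whole class it was 13988 to 15940 CPM in angiogenic and 23069 to 26835 CPM in invasive PDOXs, and in the smaller cluster 9155 to 13235 against 15047 to 17224 CPM. Its part in the difference was not tested, nor was that of the 8 choroid plexus markers, whose summed level in endothelial-like cells was 859 to 3643 CPM in angiogenic and 397 to 682 CPM in invasive PDOXs, with no overlap.

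**Figure D3:**
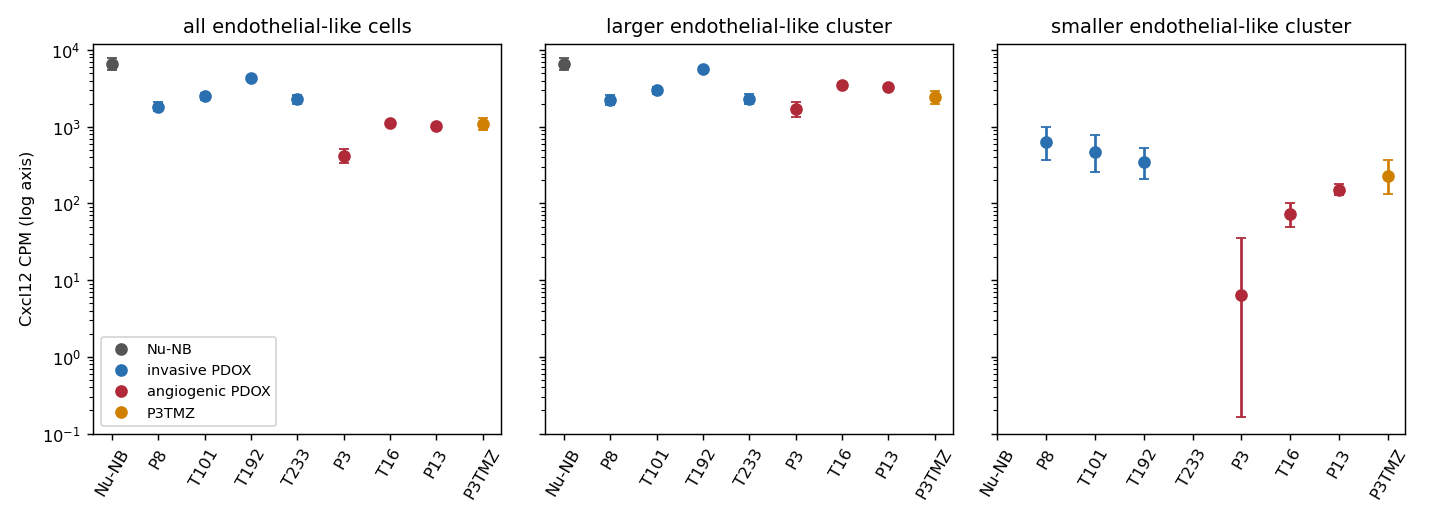
Cxcl12 level in CPM (y axis, logarithmic) in each sample (x axis) for all endothelial-like cells, the larger cluster and the smaller cluster, with exact 95% Poisson intervals as bars. Angiogenic PDOXs lie below invasive ones in all endothelial-like cells and in the smaller cluster, and overlap with them in the larger cluster, where they stand between 1700 and 3505 CPM.

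At equal depth, the share of endothelial-like cells with a Cxcl12 UMI was 34.7% in P8, 35.3% in T101, 60.9% in T192 and 47.7% in T233, against 9.01% in P3, 27.0% in T16 and 41.9% in P13. The groups overlap, and the difference of -18.7 percentage points did not exceed the spread between PDOXs (exact p = 0.17). In Nu-NB 7 of 11 cells of this depth held a UMI (63.6%, exact binomial interval 30.8 to 89.1%).

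Summed over all kept cells, by contrast, the Cxcl12 level was similar in both groups, at 226 ± 95.7 CPM (SD, n = 3) in angiogenic and 244 ± 150 CPM (SD, n = 4) in invasive PDOXs, a difference of -0.01 on the log2(CPM + 50) scale (exact p = 1). Per sample it was 101.2 CPM in Nu-NB, 95.7 in P8, 439 in T101, 276 in T192, 163 in T233, 120 in P3, 307 in T16 and 251 in P13. Without the Mdm2-led and the Hist1h4c-led cluster, which held 45.8% of the kept cells of T101 and 0 to 29.2% of those of the other samples, the means were 239 ± 96.4 and 313 ± 273 CPM (SD), and the difference was -0.11 (exact p = 0.91). There T101 stood at 705.5 CPM.

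Tip-list cells were those endothelial-like cells with at least 2 UMIs of a list of tip cell and sprouting genes (9 of its 10 genes are in every file, among them Apln and Angpt2, and Cxcr4 is not one of them). Their Cxcl12 level was lower than that of the other endothelial-like cells in 6 of 6 PDOXs with at least 10 cells on both sides. It was 1119 against 2297 CPM in P8, 1288 against 3121 in T101, 1325 against 5786 in T192, 181 against 969 in P3, 219 against 2747 in T16 and 347 against 3908 in P13. The mean difference was -2.20 ± 0.999 (SD, n = 6) on the log2(CPM + 50) scale. The exact two-sided p was 0.0312, the smallest that 6 PDOXs allow, and 0.125 after adjustment over 4 comparisons of this kind, so it did not pass. In cells with at least 2 UMIs of an arterial list (10 genes, such as Gkn3, Bmx and Hey1) Cxcl12 was higher in 4 of 7 PDOXs, with a mean difference of 0.24 ± 0.75 (SD, n = 7, adjusted exact p = 0.65). Tip-list cells were deeper than the rest (a median of 2690 against 928 UMIs in P13), and CPM is relative to this depth.

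**Figure D4:**
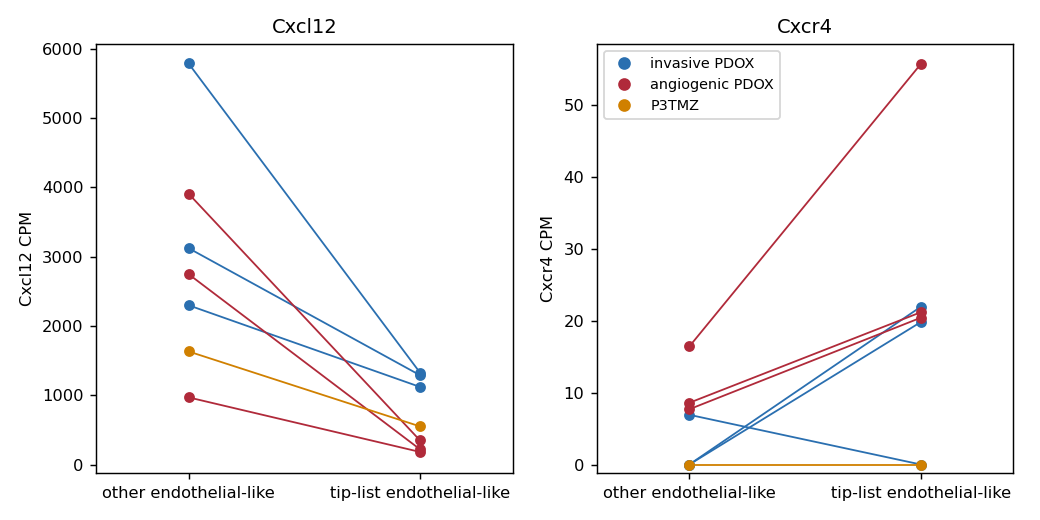
Level of Cxcl12 (left) and Cxcr4 (right) in CPM (y axis) in tip-list and other endothelial-like cells (x axis), where each line joins the 2 values of 1 sample. Cxcl12 lies lower in the tip-list cells in every sample shown, while the Cxcr4 values rest on 0 to 2 UMIs on at least 1 side in every sample.

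Cxcr4 was detected at a far lower UMI count, and no class held it as clearly. The kept cells of the 7 PDOXs gave 373 Cxcr4 UMIs in 275 cells, and those of Nu-NB gave 4. Of the PDOX UMIs 198 (53.1%) lay in myeloid-like cells, 48 in endothelial-like, 27 in ciliated ependymal-like, 25 in mural-like, 25 in choroid plexus-like and 16 in astrocyte-like cells. Per PDOX the myeloid-like share ran from 19.2 to 84.7% (median 30.9%), and T192 gave 94 of the 198 UMIs. The endothelial-like share was the larger one in P3 (33.3 against 22.2%) and T16 (42.3 against 19.2%). The cells that held a Cxcr4 UMI were deep, with a median of 4648 UMIs against 785 for all kept PDOX cells, and 176 of the 373 UMIs lay in cells of over 10000 UMIs, which were 2.75% of the cells. At equal depth 19 of 2445 myeloid-like cells (0.777%, exact binomial interval 0.468 to 1.21%) held a Cxcr4 UMI, beside 12 of 1419 endothelial-like (0.846%, interval 0.438 to 1.47%), 4 of 1515 astrocyte-like (0.264%, interval 0.0720 to 0.675%) and 2 of 644 OPC-like cells (0.311%). The intervals of these classes overlap.

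In myeloid-like cells, which here comprise microglia and other macrophages, Cxcr4 was at 0 of 371863 UMIs in Nu-NB, so that 3 UMIs would be 8.07 CPM. It stood at 13.3 CPM in P8, 43.2 in T101 (3 UMIs), 34.998 in T192, 36.6 in T233, 28.5 in P3, 9.22 in T16 and 19.9 in P13. All 7 PDOXs lie above the level of 3 UMIs in Nu-NB, and their mean of 26.5 ± 12.7 CPM (SD, n = 7) is 3.29 times that level. The Nu-NB interval reaches 9.92 CPM, however, and overlaps those of P8 (8.01 to 20.8 CPM), T101 (8.92 to 126) and T16 (2.99 to 21.5). At equal depth 0 of 310 Nu-NB cells of this class held a Cxcr4 UMI (exact binomial interval 0 to 1.18%). That interval covers the pooled PDOX share of 0.777%, and T101 and T16 were at 0 too. Markers of other classes stood higher in the myeloid-like cells of the PDOXs too: besides the endothelial markers given above, the OPC markers were at 21.5 CPM in Nu-NB and 85.4 to 1272 CPM in the PDOXs and the choroid plexus markers at 183 and 370 to 7047 CPM. Their part in the Cxcr4 values was not tested. The edgeR test against 1 brain did not call the gene (FDR = 0.14), and with it 0% of 10426 genes passed, while 1777 had an unadjusted p under 0.05 and DESeq2 called 178, with no adjusted value for Cxcr4. The fit recovered 17 of 100 genes changed 8-fold in simulated counts of these sizes.

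Compared with other classes of the same PDOX, the myeloid-like Cxcr4 level was higher than the endothelial-like in 5 of 7 PDOXs (mean difference 0.27 ± 0.44 on the log2(CPM + 50) scale, SD, n = 7) and higher than the mural-like in 5 of 7 (0.19 ± 0.39, SD, n = 7). Many of these values rest on 0 to 2 UMIs. The OPC-like cells held 0 Cxcr4 UMIs in 5 of 6 PDOXs, where 3 UMIs would be 19.4 to 161 CPM, above the myeloid-like level of the same PDOX in each, and those of P8 held 2 UMIs (2.85 CPM), so that the classes cannot be ordered PDOX by PDOX. The fibroblast-like cells held 0 UMIs in 3 PDOXs, where 3 UMIs would be 60.5 to 159 CPM, and a difference from the myeloid-like cells was not detectable at this depth. After adjustment 0 of 8 pairs passed 0.05 (adjusted exact p-values of 0.0714 to 0.88). The order of classes by mean CPM placed ciliated ependymal-like cells (30.7 CPM in 4 PDOXs, of which T192 had 3 UMIs in 11 cells) above myeloid-like cells, and 0 neighbors in this order passed (adjusted exact p = 1 for each), in the same family of tests in which none could.

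Within the myeloid-like class, a cluster was led by the inflammatory genes Il1a, Tnf and Il1b, with the proliferation gene Mki67 next. P13 gave 46.6% of its cells. This cluster held 123 of the 198 Cxcr4 UMIs of the PDOXs in 602 of 3507 cells. Its pooled level was 33.7 CPM (interval 28.0 to 40.2), beside 21.2 CPM (14.6 to 29.8) in the cluster led by Ch25h, Spp1 and Cst7 and 7.18 CPM (1.96 to 18.4) in the cluster led by the homeostatic microglia genes P2ry12, Gpr34 and Tmem119. The first of these clusters held deeper cells, with a median of 3294 UMIs against 1098 and 780. Of the other myeloid-like clusters, that led by AU020206, Tgfb1 and Itgax stood at 29.1 CPM (interval 15.1 to 50.9) with a median depth of 380 UMIs, and 1 measured in 2 PDOXs at 17.9 CPM (11.7 to 26.3) with 4951 UMIs. Per PDOX the clusters overlap: the first ran from 13.1 to 65.5 CPM (median 27.7), the second from 0 to 37.2 (median 22.4), the homeostatic one from 0 to 96.7 (median 0) and the Itgax cluster from 0 to 130.5 (median 20.3). In cells with at least 2 UMIs of a list of activated microglia genes (10 genes, such as Spp1, Cst7 and Ccl3), which were nearly all myeloid-like cells of most PDOXs, Cxcr4 differed from the rest by 0.04 ± 1.04 (SD, n = 5, adjusted exact p = 0.94). The rest held 3 Cxcr4 UMIs in all 5 PDOXs.

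The genes closest to Cxcr4 over the same 61 sums were Bcl2a1b (Pearson r = 0.77), Capg (0.76), Cst7 (0.75), Wfdc17 (0.75) and Ch25h (0.73), and several of these lead myeloid-like clusters. Bcl2a1b encodes a survival factor of leukocytes, but as a member of a family of near-identical copies its reads may be split between them. Capg encodes an actin-capping protein of macrophages. Of 2030 PDOX cells in mixed or unnamed clusters, 78 held at least 2 UMIs of 4 T or NK cell markers and gave 4 Cxcr4 UMIs (50.5 CPM, interval 13.8 to 129). A small cluster led by the B cell genes Igkc, Cd79b and Ighm gave 3 Cxcr4 UMIs in 49 PDOX cells (118 CPM). In T101 mixed and unnamed cells held 5 and 4 of the 13 Cxcr4 UMIs.

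Between tumor types, the Cxcr4 level of myeloid-like cells was 19.2 ± 9.64 CPM (SD, n = 3) in angiogenic and 32.0 ± 12.98 CPM (SD, n = 4) in invasive PDOXs. The groups overlap through P8 (exact p = 0.29), edgeR gave a log2FC of -0.79 ± 0.50 (SE) with an FDR of 0.67, and 0.113% of 8846 genes were called in this class, 0.102% higher and 0.0113% lower in angiogenic PDOXs. Among MACS-sorted PDOXs alone the 2 groups did not overlap (exact p = 0.1, the smallest possible). At equal depth the share of myeloid-like cells with a Cxcr4 UMI was 0 to 0.862% in angiogenic and 0 to 1.45% in invasive PDOXs (exact p = 0.46).

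In endothelial-like cells, Cxcr4 was at 44.0 CPM in P3 (9 UMIs), 16.7 in T16 (11 UMIs) and 18.0 in P13 (25 UMIs). In invasive PDOXs it was at 8.75 CPM in P8, 6.84 in T101 and 4.64 in T192, with 1 UMI each, and at 0 in T233. The difference of 0.45 on the log2(CPM + 50) scale had an exact p of 0.0571, the smallest possible, and an adjusted p of 0.46, so it did not pass. The measured values do not overlap, but 3 UMIs would be 26.2 CPM in P8, 20.5 in T101 and 33.5 in T233, all above the values of T16 and P13, so that the 2 groups cannot be put in order at this depth. The gene was too low for the filter of the edgeR fit. The 3 invasive UMIs came from 772 cells, and in Nu-NB, at 0 UMIs, 3 UMIs would be 184 CPM. Of the angiogenic UMIs, 41 lay in the smaller cluster and 4 in the larger one. Within each cluster the groups overlap. In the smaller one Cxcr4 was at 51.6 CPM in P3, 24.0 in T16 and 21.8 in P13, against 33.3 in T101 (1 UMI) and 0 in P8 and T192. In the larger one it was at 20.2 CPM in P3 (1 UMI), 7.90 in P13 and 0 in T16, against 11.7 in P8, 6.25 in T192 and 0 in T101 and T233. Without P3 the difference over the whole class was 0.29, and the choroid plexus markers stood higher in the angiogenic group, as given above for Cxcl12. The 4 T or NK cell markers did so too, at 4.89 to 60.8 CPM in angiogenic and 0 to 4.64 CPM in invasive PDOXs, and the part of either list in the Cxcr4 values was not tested. The smaller cluster is also the deeper one, since its cells had a median of 1400 UMIs against 616 in the larger one.

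Tip-list endothelial-like cells held 8 Cxcr4 UMIs against 1 outside the list in P3 (55.7 against 16.4 CPM), 9 against 2 in T16 (21.2 against 8.58 CPM) and 23 against 2 in P13 (20.4 against 7.68 CPM). P8 and T101 had 1 UMI each, inside the list, and T192 had 1 outside it. With under 3 UMIs on at least 1 side of each PDOX, the levels cannot be ordered PDOX by PDOX. The mean difference of 0.34 ± 0.30 (SD, n = 6) had an exact p of 0.0625 and an adjusted p of 0.125, so it did not pass. Of the 34 PDOX endothelial-like cells with a Cxcr4 UMI, 4 also held a Cxcl12 UMI, beside 45.8% of all PDOX endothelial-like cells, a difference that was not tested and is not adjusted for the cluster or tumor the cells come from.

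**Figure D5:**
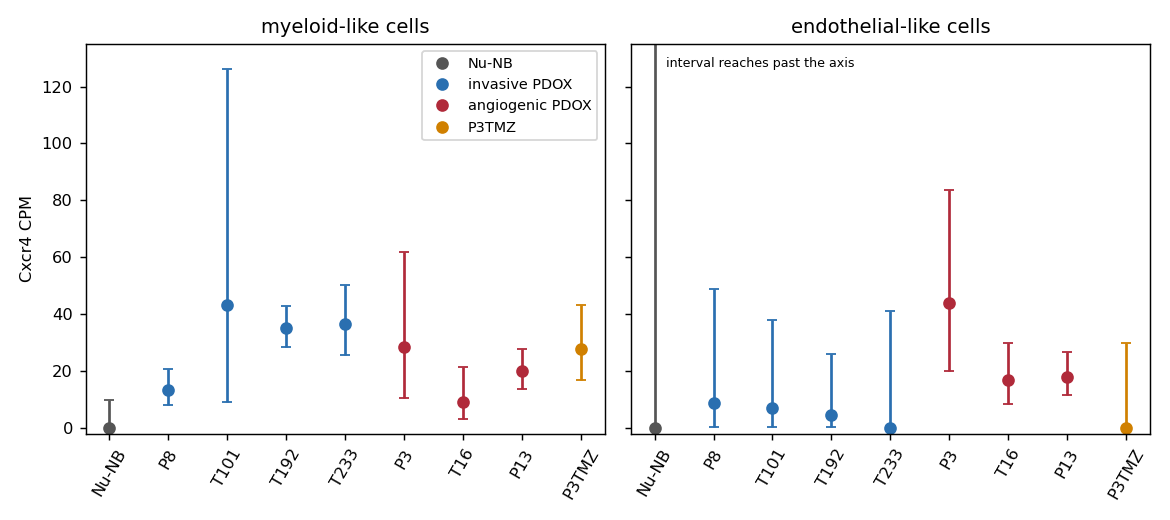
Cxcr4 level in CPM (y axis) in each sample (x axis) for myeloid-like and endothelial-like cells, with exact 95% Poisson intervals as bars. In myeloid-like cells every PDOX lies above Nu-NB, which is at 0, but the interval of Nu-NB overlaps those of P8, T101 and T16. In endothelial-like cells the 3 angiogenic PDOXs have 16.7 to 44.0 CPM. The 4 invasive ones rest on 0 or 1 UMI each, with intervals that overlap these values.

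Summed over all kept cells, Cxcr4 was at 3.43 CPM in Nu-NB and at 9.45 in P8, 15.3 in T101, 30.3 in T192, 34.2 in T233, 34.9 in P3, 10.1 in T16 and 15.8 in P13. Angiogenic and invasive PDOXs differed by -0.04 on the log2(CPM + 50) scale (exact p = 0.97), and by -0.09 (exact p = 0.69) without the Mdm2-led and the Hist1h4c-led cluster, where T101 stood at 22.9 CPM.

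Ackr3, the gene of the second receptor, was sparse, with 32 UMIs in the endothelial-like and 27 in the mural-like cells of the PDOXs. Its endothelial-like level was 61.2 CPM in Nu-NB, which is 1 UMI, and 6.08 to 27.3 CPM in the PDOXs. In mural-like cells it reached 115 CPM in P8 and was at 0 in 3 of 7 PDOXs.

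Of the list of receptors and processing genes that act on the same ligand or receptor, such as the proteases Dpp4, Mmp2 and Mmp14 and the further ligand Mif, 10 of 11 are in every file and 5 could be tested between angiogenic and invasive endothelial-like cells. Cxcl12 was the only one called, lower in angiogenic PDOXs, in a fit that called 1.34% of all genes, and the median log2FC of the 5 was -1.18. Of 16 testable genes of Cxcr4 signalling (G protein subunits, arrestins and kinases downstream), 0 were called there with a median of 0.01, nor were any of 2 other CXC chemokines or receptors or of 5 hypoxia response genes, whose median was -0.45. In myeloid-like cells 0 of 8, 22, 6 and 11 testable genes of these 4 lists were called, in a fit that called 0.113% of all genes. At these backgrounds lists of this size hold about 0 calls, so the zeros say nothing particular about the lists. In ciliated ependymal-like cells (2 PDOXs on each side, 0.361% of 3600 genes called, 0.0556% higher and 0.306% lower), 2 genes of these lists were called lower in angiogenic PDOXs: Cd74, the receptor subunit for MIF (log2FC -2.75 ± 0.52, SE, edgeR FDR = 0.00847), and Cxcl2, a neutrophil attractant (-3.17 ± 0.58, SE, edgeR FDR = 0.00847). Cd74 stood at 2689 CPM in T101 (25 UMIs in 11 cells) and 755 in T192 (26 UMIs in 11 cells), against 179 in T16 and 197 in P13. Cxcl2 was at 0 in T101 and at 1249 CPM in T192 (43 UMIs in 11 cells), against 81.6 in T16 and 93.1 in P13, so its groups overlap and T192 holds the only value that is higher than those of both angiogenic PDOXs. The part of RNA of other classes in the Cd74 and Cxcl2 values was not tested.

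P3TMZ and P3 are 1 sample each, so their difference has no replicate check. In endothelial-like cells, Cxcl12 was at 1088 CPM in P3TMZ (134 UMIs in 127 cells, interval 911 to 1288) and at 416 CPM in P3 (85 UMIs in 209 cells, interval 332 to 514), a ratio of 2.62 (1.98 to 3.48). The P3TMZ value lies among those of the other angiogenic PDOXs. The smaller cluster held 32.3% of the endothelial-like cells in P3TMZ and 65.1% in P3. Within the larger cluster the level was 2414 CPM (interval 1997 to 2893) in P3TMZ and 1700 (1356 to 2105) in P3, and within the smaller one 228 CPM (17 UMIs) and 6.45 CPM (1 UMI). The summed endothelial markers stood at 27487 CPM in P3TMZ and 15940 in P3, the choroid plexus markers at 349 and 3643, and the myeloid markers at 528 and 1843. Their part in the values of both genes was not tested.

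Cxcr4 was at 0 of 123184 UMIs in the endothelial-like cells of P3TMZ, which allows up to 24.4 CPM at 3 UMIs. The P3 level of 44.0 CPM (9 UMIs, interval 20.1 to 83.5) is 1.81 times that limit. The intervals overlap, since that of P3TMZ reaches 29.9 CPM, so these samples cannot be put in order. In myeloid-like cells, Cxcr4 was at 27.7 CPM in P3TMZ (19 UMIs) and 28.5 in P3 (6 UMIs), a ratio of 0.974 (0.374 to 2.98). Over all kept cells, Cxcl12 was at 119 CPM in P3TMZ and 120 in P3.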

How the data were processed

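The material is 9 Drop-seq libraries of host cells. The authors mapped the reads with STAR to the human and mouse genomes (GRCm38 or mm10 for the mouse, per the submitters' processing notes) and deposited raw UMI counts per gene and cell barcode, without normalization. Gene symbols of an older release are found in the tables of Nu-NB and P8, the same samples that were sorted by FACS, so the effects of symbols and sort cannot be told apart, and genes listed in every file were used. Barcodes needed 200 detected genes or more and no more than 30% of UMIs from mitochondrial genes, and the 5% with the highest scrublet score per sample were left out. Cells were clustered with scanpy 1.11.5 and leidenalg 0.10.2 (resolution 1, seed 1, 20 neighbors in 30 components of 2000 variable genes). No batch correction was applied, and the 66 pathway genes were kept out. A class name was given to a cluster where at least 3 of its fixed markers, and 50% of them, were found in at least 10% of its cells and 1.5-fold above all cells, with 2 or more in 30% of its cells. Of 14626 kept cells, 1971 stayed unnamed and 373 mixed.

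UMIs were summed per class and sample with at least 10 cells. Classes and cell subsets were compared within PDOXs by exact two-sided sign-flip tests, and angiogenic with invasive PDOXs by exact two-sided permutation tests over the 35 splits, on log2(CPM + 50) with Benjamini-Hochberg adjustment. All genes were fitted with edgeR 4.0.16 (quasi-likelihood, TMM, filterByExpr) on R 4.3.3, at FDR ≤ 0.01 and |log2FC| ≥ 1 against Nu-NB and FDR ≤ 0.05 between growth types, and with DESeq2 1.42.0 as an alternative. The edgeR script was tested on simulated data. The growth type is that given in the study for each model. The members, lists and comparisons were chosen with earlier results of these data known, and the naming rule follows an earlier one made with clusters in view. Named genes are the members, Ackr3, list genes past a threshold (up to 5 in each direction) and the 5 genes with the most similar levels. Alternatives were other cell filters, classes, resolution, pseudocounts, depths, scalings and left-out PDOXs. Nothing says that samples came from more than 1 animal each, and p-values measure the spread between these samples. Against Nu-NB, which is 1 brain, the spread between brains was taken to be that between PDOXs and was not measured. Human tumor cells and spatial data were not analysed here.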

Additional observations from a re-analysis of the deposited data

Results flagged for a closer look

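In 20 groups of PDOXs tested for an outlying value, 4 held one. Chance alone would give about 1 in 20 for continuous values, a rate that does not hold where most samples are at 0 UMIs. Cxcr4 in endothelial-like cells stood at 44.0 CPM in P3, apart from 18.0 CPM in the next PDOX. Cxcl12 in choroid plexus-like cells stood at 88.2 CPM in T192 (15 UMIs, all in 18.2% of its 11 cells), apart from 24.8 CPM in T16. At equal depth 0 of these 11 cells held a Cxcl12 UMI. Cxcr4 stood at 33.3 CPM in the cycling-like cells of P3, which is 1 UMI, and at 2.85 CPM in the OPC-like cells of P8, which is 2 UMIs, where all other PDOXs were at 0. Neither stands apart at this depth, since 3 UMIs would be 17.3 to 383 CPM in the other PDOXs for the cycling-like and 19.4 to 161 CPM for the OPC-like cells.

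The Cxcl12 values were below that of Nu-NB in the endothelial-like cells of 7 of 7 PDOXs and above it in 3 other classes in every PDOX. The mean PDOX level was 32.3 CPM in myeloid-like cells (2.69 in Nu-NB), 72.7 CPM in mural-like cells (0 in Nu-NB, at 8153 UMIs) and 900.3 CPM in the fibroblast-like cells of 3 PDOXs (456 in Nu-NB, 4 UMIs). All mural-like PDOX values lie under the 368 CPM that 3 UMIs would give in Nu-NB, and the fibroblast-like interval of Nu-NB, 124 to 1168 CPM, covers T16 and P13, so these differences were not detectable at this depth. The fibroblast-like value of P8, 1547 CPM (interval 1212 to 1945), lies wholly above it, while the astrocyte markers in this class were at 12541 CPM in Nu-NB and 4364 CPM in P8, and their part was not tested. The myeloid-like value of P8, 4.90 CPM, lies inside the Nu-NB interval of 0.0681 to 15.0 CPM. P8 and Nu-NB are the 2 samples sorted by FACS, and the PDOXs sorted by MACS had 16.4 to 79.8 CPM, so sort and tumor cannot be told apart there. The differences between classes were not tested, since there is 1 brain.

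Among barcodes that failed the cell filters, Cxcl12 stood at 637 CPM in T101 (121 UMIs, interval 528 to 761), above the 213 CPM of such barcodes in Nu-NB (interval 154 to 288). T101 also had the highest Cxcl12 level over all kept cells.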

How the results depend on the processing

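Of 296 values that answer a comparison under an alternative, 256 kept their side of the threshold and their direction where one was called, 8 lost a call, 32 counts of genes moved by more than 1.5 times, and 0 called values reversed. All 8 lost calls are of Cxcl12 between angiogenic and invasive endothelial-like cells by edgeR, the only called test among these, which had 15 alternatives. Many of the 256 could not change side, since the exact test of 3 against 4 PDOXs has a smallest p of 0.0571. The tally is therefore no measure of how stable that call is. Of 661 alternative values of tests, 43 had another sign, all without a call, such as Cxcl12 over all kept cells (-0.30 to 0.30 without 1 PDOX) and Cxcr4 in activated-list cells (-0.19 to 0.47). Samples of different groups were not paired, because the replicate numbers follow accession order rather than the labels and pair nothing. Only classes and cell subsets were paired, within each PDOX. The edgeR log2FC of Cxcl12 between angiogenic and invasive endothelial-like cells ran from -1.95 to -1.39 (FDR 0.0382 to 0.17) when each PDOX was left out, and was -1.66 (FDR 0.0715) without the doublet step and, added later, with T192 and T233 summed; the cause was not tested. Under the other 6 settings the FDR ran from 0.00158 to 0.0483. Within the larger endothelial-like cluster, a setting added once the data had been seen, the exact difference shrank from -1.66 to -0.18. Genes called in these cells were 55, and 142 by DESeq2, 94 with classes from each cell's own markers, 28 without the doublet step, 3 with T192 and T233 summed, 319 without the filter on low counts, 100 at resolution 2, and 1 to 53 without 1 PDOX. In myeloid-like cells they were 10, and 54 by DESeq2, 17 with DESeq2 size factors, 52 without the filter, 5 at resolution 2, 1 with T192 and T233 summed, 0 with at least 500 detected genes, with own-marker classes or without the doublet step, and 0 to 326 without 1 PDOX. Against Nu-NB, myeloid-like calls were 0, and 178 by DESeq2, 1 each with at least 500 detected genes, without the doublet step or at resolution 2, and 0 to 33 without 1 PDOX. Without cells over 10000 UMIs, also added later, no count of called class pairs changed from 0. A count at 0 cannot fall, so it does not show how the levels depend on these cells. Cxcr4 rests on 373 UMIs in the PDOXs, and levels of under 3 UMIs per sample cannot be ordered.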
